A study of Mus musculus with 6 samples.

Results

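Transcript levels of 9 transcription factor genes that set or mark the arterial, venous or lymphatic identity of vessels were examined in 2 cell populations sorted from the limb skeleton of newborn mice. The genes were Sox7, Sox17, Sox18, Nr2f2, Hey2, Prox1, Foxc1, Foxc2 and Maf, and they were taken as a list of names, chosen for their roles with earlier results of these data known. All 9 of the 18193 genes with a probe set of their own were found, with 24 of the 34945 probe sets that name a single gene. A gene's value is that of its brightest probe set, by the mean of the 6 arrays, and its other probe sets are given beside it.

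The Tie2-positive population (3 arrays) was sorted as negative for CD45, an antigen of white blood cells, and for Ter119, an antigen of red-cell precursors, as low for integrin alpha V (Itgav) and as positive for Tie2, the angiopoietin receptor of endothelial cells. The Tie2-negative population (3 arrays) was sorted as negative for CD45, Ter119, Itgav and Tie2. Cells of both populations came from fore and hind limbs, pooled per litter, of mice at postnatal day 3, and neither was treated. Wild type is the labelled genotype, while the protocol speaks of GFP-labelled mice, and which applies is not settled here. Whether each sample was a litter of its own is not stated. The p-values therefore reflect only the variation among these 6 samples, some of which may be technical. RNA went through 2 rounds of amplification before hybridisation to Affymetrix Mouse 430 2.0 arrays. All values below are log2 array signals after quantile normalization, and all changes are Tie2-positive minus Tie2-negative on that scale (n = 3 arrays per population).

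Sox7, Sox17 and Sox18 form the SoxF group, DNA-binding factors with a high-mobility-group domain that are made in endothelial cells and partly stand in for one another. In the mouse, Sox17 is tied to arterial identity, and Sox18 switches on Prox1, the factor that sets lymphatic endothelial fate. Nr2f2 (COUP-TFII) is a nuclear receptor that holds veins in their state by damping Notch signalling, whereas Hey2 is a repressor induced by Notch in arteries. The forkhead factors Foxc1 and Foxc2 act in vessels and in mesenchyme, with Foxc2 needed for lymphatic valves and Foxc1 made by the Cxcl12-rich reticular cells of bone marrow, and Maf is a leucine zipper factor of lens, macrophages, T helper cells and liver sinusoids.

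The populations were checked against their labels before the 9 genes were read. Tek, the gene of Tie2, had values of 12.06, 10.86 and 9.80 in Tie2-positive replicates 1, 2 and 3, against 4.79 to 4.90 in the Tie2-negative arrays, and all 19 pan-endothelial genes had higher values in every Tie2-positive array than in any Tie2-negative one (13 called higher in limma). Ptprc, the gene of CD45, was at 4.87 in Tie2-positive replicate 1 but at 9.95 and 11.22 in replicates 2 and 3, against 9.42 to 10.41 in Tie2-negative arrays, although both gates excluded CD45. A list of 12 neutrophil and monocyte genes had medians of 5.99, 11.47 and 13.40 in Tie2-positive replicates 1, 2 and 3, against 6.10 to 8.06 in the Tie2-negative arrays. Their summed signal ran from 9.61 to 16.91 in the Tie2-positive and from 9.98 to 12.39 in the Tie2-negative arrays (log2 of the sum), and limma called 0 of the 12 (0 at an unadjusted p under 0.05). Of 12 measured erythroid genes 7 fell, with a list median of 5.91, 8.13 and 5.95 against 10.23 to 11.95 in the Tie2-negative arrays. Early B-cell genes had list medians of 5.45, 5.85 and 5.69 against 7.75 to 10.13 in the Tie2-negative arrays, and 7 of 12 fell. Megakaryocyte genes had list medians of 6.47, 9.05 and 7.72 against 5.93 to 6.02 in the Tie2-negative arrays, and 2 of 8 rose. The Tie2-positive arrays thus held unequal amounts of blood-cell transcripts, and the Tie2-negative arrays were rich in erythroid and early B-cell ones. In such bulk samples fewer cells of a type and less RNA per cell cannot be told apart.

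Of the 9 genes, 5 rose in the Tie2-positive population, 0 fell and 4 did not pass in limma at an adjusted p under 0.05 over 18193 genes. Over all genes 4.84% were called higher and 7.37% were called in either direction. The 5 were the SoxF genes Sox7, Sox17 and Sox18, the venous factor Nr2f2, and Maf. Hey2, Prox1, Foxc1 and Foxc2 did not pass. In 8 of the 9 genes the 3 Tie2-positive values all lay above the 3 Tie2-negative values, a pattern shown by 15.2% of all genes, and Prox1 was the exception. The median change of the 9 genes was 2.87, against -0.11 over all genes.

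The number of genes past the threshold rested on single arrays and on the model. With a block for replicate number on all 6 arrays, limma called 0 of the 9 and 0 of all 18193 genes. The 5 genes then had limma adjusted p-values of 0.0528 to 0.0695. Whether a replicate number marks a shared litter is not stated. In fits with no block, the number was 1 (Sox17) without Tie2-positive replicate 2 and also 1 (Sox17) without Tie2-negative replicate 3. It was 0 without Tie2-negative replicate 1 or 2, where limma called 0 of all 18193 genes (4012 and 3978 of all genes had an unadjusted p under 0.05). Over the 6 fits that left out 1 array, the 5 genes had unadjusted limma p-values between 4.3e-07 and 0.0122. In an alternative added once the data had been seen, Tie2-positive replicate 1 alone was set against the Tie2-negative arrays. The changes of Sox7, Sox17, Sox18, Nr2f2 and Maf were then 6.61, 6.90, 6.33, 3.92 and 4.30. Those of Hey2, Prox1, Foxc1 and Foxc2 were 1.14, 0.12, 2.73 and 2.30. That array held the highest Tie2-positive value of all 9 genes, so larger changes were bound to follow. The fit assumes that the lone array varies like the Tie2-negative ones, so its calls are not read as results.

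**Figure D1:**
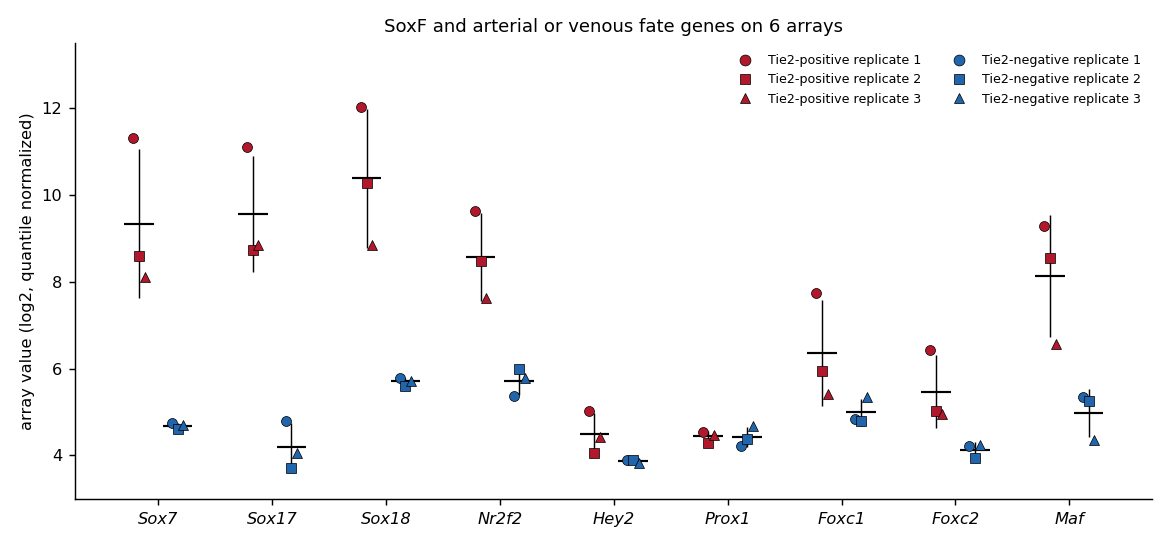
Array values (log2, quantile normalized, vertical axis) of the 9 genes on 6 arrays; red symbols are Tie2-positive arrays, blue symbols are Tie2-negative arrays, the symbol shape gives the replicate, horizontal bars are means and vertical lines ± SD (n = 3). The SoxF genes, Nr2f2 and Maf separate widely, Tie2-positive replicate 1 has the highest Tie2-positive value for all 9 genes, and the populations overlap for Prox1.

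Sox7 had values of 11.30, 8.60 and 8.11 in Tie2-positive replicates 1, 2 and 3, against 4.75, 4.62 and 4.70 in Tie2-negative replicates 1, 2 and 3. The Tie2-negative arrays were tightly grouped (SD 0.07), while the Tie2-positive arrays spread over 3.19 units (SD 1.72), with replicate 1 well above the others. The change was 4.65 ± 0.78 (SE; limma adjusted p = 0.0220), 25.1-fold on the linear scale. A second Sox7 probe set gave a change of 0.98 ± 0.38 (SE) and did not pass (limma adjusted p = 0.174 over 45037 probe sets), although its populations did not overlap either.

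Sox17 had values of 11.09, 8.73 and 8.85 in Tie2-positive replicates 1, 2 and 3, against 4.80, 3.72 and 4.06 in the Tie2-negative arrays. Its change of 5.36 ± 0.66 (SE; limma adjusted p = 0.0119) was the largest of the 9 genes and ranked 25th among all 18193. The lowest Tie2-positive value stood nearly 4 units above the highest Tie2-negative value. The probe set used carries the suffix x_at, which marks probes that can match other transcripts. The other Sox17 probe set had values of 8.32, 6.67 and 6.56 in the Tie2-positive arrays and 5.98, 5.36 and 5.19 in the Tie2-negative arrays. That is a change of 1.68 ± 0.49 (SE), in the same direction but not past the threshold (limma adjusted p = 0.0952 over all probe sets, or 0.0879 when probe sets with the suffixes x_at and s_at were left out).

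Sox18, which has a single probe set, had values of 12.03, 10.27 and 8.84 in Tie2-positive replicates 1, 2 and 3, against 5.78, 5.61 and 5.73 in the Tie2-negative arrays. Each Tie2-positive array stood apart from the others by more than the whole range of the Tie2-negative arrays (0.17). The change was 4.68 ± 0.73 (SE; limma adjusted p = 0.0192). The 95% intervals of the 3 SoxF changes, 2.80 to 6.49 for Sox7, 3.80 to 6.92 for Sox17 and 2.94 to 6.41 for Sox18, overlapped widely, and differences between the 3 genes were not tested.

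Among 16 other Sox family genes, 1 rose, 1 fell and 14 did not pass, with a median change of -0.03. Sox11, a SoxC factor of neural and mesenchymal progenitors, rose by 3.30 ± 0.60 (SE; limma adjusted p = 0.0272). Sox6, a SoxD factor of cartilage and of red-cell maturation, fell by 3.81 ± 0.64 (SE; limma adjusted p = 0.0224). Its values were 5.33 to 6.16 in the Tie2-positive arrays and 8.70 to 11.16 in the Tie2-negative arrays, which also carried the high erythroid signal. The part of the erythroid signal in the change of Sox6 was not tested. When Tie2-positive replicate 2 was left out, limma called 0 of the 16 and 496 of all genes. It also called 0 of the 16 without Tie2-negative replicate 1 or 2 and with the replicate block, where 0 of all genes were called. In each other fit that left out 1 array the number stayed at 2.

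Nr2f2 had values of 9.63, 8.48 and 7.62 in Tie2-positive replicates 1, 2 and 3, against 5.37, 5.98 and 5.78 in the Tie2-negative arrays. The populations were separated by 1.64 units between their nearest arrays. The change was 2.87 ± 0.50 (SE; limma adjusted p = 0.0241), 7.29-fold on the linear scale. Nr2f2 had 6 probe sets, of which 3 were called higher when all 45037 probe sets were tested, where 3.4% of all probe sets were. The called ones changed by 2.87, 2.26 and 2.15, with limma adjusted p-values of 0.0251, 0.0479 and 0.0458. The others changed by 1.22, 1.07 and 0.07, and the populations overlapped in the last of these only. Nr2f1, its close relative, had a change of 0.72 ± 0.23 (SE) that did not pass (limma adjusted p = 0.110).

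Promoter sequence was at hand for 4 of the 9 genes (Nr2f2, Hey2, Prox1 and Foxc1), from RefSeq on build GRCm38.p6, as 250 bases before to 50 bases after an annotated start. The windows were searched on both strands for ACAAT (the core that Sox factors bind), CCGGAA (Ets factors), CACGTG (Hey factors) and AGGTCA (the core site of nuclear receptors such as Nr2f2). These motifs occurred in 31.0%, 14.9%, 7.15% and 16.3% of all 32851 promoter windows of that length. Among the 5 windows of the 4 genes there was a single match, CCGGAA in the Foxc1 window, 62 to 57 bases before the start. The Nr2f2 window, shown because it is that of a gene that rose, held 0 matches. It has 49.7% G and C and 2 CG pairs, against 67.3% and 32 in the Foxc1 window. The windows lie at chr7:70366697-70366996 (minus strand) and chr13:31806396-31806695 (plus strand), and capitals mark the match.
Nr2f2: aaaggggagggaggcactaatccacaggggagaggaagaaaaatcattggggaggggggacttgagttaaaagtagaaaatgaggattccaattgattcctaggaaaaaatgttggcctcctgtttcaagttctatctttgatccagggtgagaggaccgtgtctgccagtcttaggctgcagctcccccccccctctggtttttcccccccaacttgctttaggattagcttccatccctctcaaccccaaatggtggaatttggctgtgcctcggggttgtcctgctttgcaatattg
Foxc1: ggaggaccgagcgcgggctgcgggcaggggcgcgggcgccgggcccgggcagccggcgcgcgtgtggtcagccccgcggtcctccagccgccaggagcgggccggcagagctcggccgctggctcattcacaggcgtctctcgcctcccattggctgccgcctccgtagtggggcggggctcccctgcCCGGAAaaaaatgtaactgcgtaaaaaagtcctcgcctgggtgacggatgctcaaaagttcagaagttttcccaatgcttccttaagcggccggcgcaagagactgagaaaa

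Maf had values of 9.28, 8.55 and 6.57 in Tie2-positive replicates 1, 2 and 3, against 5.34, 5.26 and 4.35 in the Tie2-negative arrays. Replicates 1 and 2 of the Tie2-positive population lay close together, and replicate 3 was about 2 units lower. The change was 3.15 ± 0.68 (SE; limma adjusted p = 0.0428), the highest adjusted p of the 5 called. Of the 6 Maf probe sets, 3 were called higher (3.15, 2.93 and 1.05), and the rest changed by between -0.22 and 0.43 without passing. Over the mean of its 6 probe sets the change of Maf was 1.28 and did not pass (limma adjusted p = 0.0613).

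Because Maf is also made by macrophages, their markers are given beside it. Of 12 measured macrophage and osteoclast genes, 1 rose, 1 fell and 10 did not pass, and their summed signal was 10.74 to 11.36 in the Tie2-positive and 10.38 to 11.21 in the Tie2-negative arrays. The gene that rose was Mrc1, the mannose receptor of macrophages and of sinusoidal and lymphatic endothelium, at 11.00, 10.35 and 7.73 in the Tie2-positive arrays against 4.57 to 5.03 in the Tie2-negative arrays. The gene that fell was the osteoclast phosphatase Acp5 (-3.67 ± 0.61, SE; limma adjusted p = 0.0219). The summed signals leaned on these 2 genes. In Tie2-positive replicate 1 the sum was 11.36, with Mrc1 alone at 11.00. In Tie2-negative replicate 1 it was 11.21, with Acp5 alone at 10.81. Similar sums therefore do not show similar amounts of macrophage transcripts. Of the 12 genes, 5 were highest among the Tie2-positive arrays in replicate 1, and 6 were higher in replicate 2 than in replicate 3 (median difference 0.02). Cd163 stayed between 3.94 and 4.19 on all 6 arrays. Csf1r had values of 6.88, 7.33 and 9.61 in Tie2-positive replicates 1, 2 and 3, against 6.90 to 7.47 in the Tie2-negative arrays. In the same order Adgre1 had 7.05, 6.31 and 8.18 (Tie2-negative 6.54 to 7.10), and Cd68 had 4.54, 4.73 and 6.49 (Tie2-negative 4.11 to 4.57). Cd163, Csf1r, Adgre1 and Cd68 were singled out after their values were seen, and none of them passed in limma. The part of macrophages in the Maf values was not tested.

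**Figure D2:**
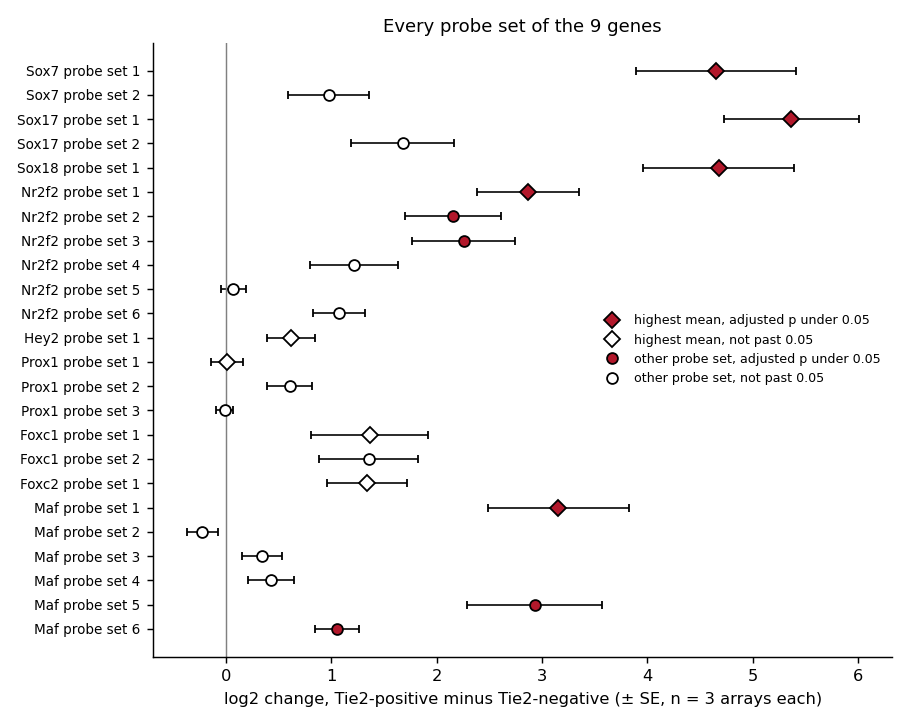
Log2 change (Tie2-positive minus Tie2-negative, horizontal axis, ± SE, n = 3 arrays each) of all 24 probe sets of the 9 genes; diamonds mark the probe set with the highest mean, and filled symbols passed an adjusted p under 0.05 over 45037 probe sets. Of the 24 probe sets, 9 were called higher, where 3.4% of all 45037 were, and 0 lower. A change above 0 was seen in 22, and the median change of all probe sets was -0.09. Nr2f2 and Maf have 6 probe sets each, so the 24 are not independent. Those of Sox7, Sox17, Nr2f2 and Maf differ in size within a gene.

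Hey2, the arterial Notch target, had values of 5.02, 4.05 and 4.42 in Tie2-positive replicates 1, 2 and 3, against 3.90, 3.90 and 3.82 in the Tie2-negative arrays. The populations did not overlap, but the lowest Tie2-positive value exceeded the highest Tie2-negative one by only 0.15. The change of 0.62 ± 0.23 (SE; 95% interval 0.07 to 1.17) did not pass (limma adjusted p = 0.142). All 6 values were below 6.55, the median of all gene values. The table carries no detection calls, so whether such low values exceed background was not determined. The related Notch targets Hey1 (1.24 ± 0.30, SE; limma adjusted p = 0.0582) and Heyl (0.04 ± 0.27, SE; limma adjusted p = 0.927) did not pass either.

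Prox1, the lymphatic fate factor, had values of 4.55, 4.29 and 4.47 in Tie2-positive replicates 1, 2 and 3, against 4.22, 4.37 and 4.68 in the Tie2-negative arrays. The 2 sets of values were interleaved. The change was 0.01 ± 0.15 (SE; limma adjusted p = 0.963), with a 95% interval from -0.34 to 0.37. Its other probe sets changed by 0.61 ± 0.21 and -0.01 ± 0.08 (SE), neither past the threshold. The populations did not overlap in the first of these, at 3.59, 3.82 and 4.44 in Tie2-positive replicates 1, 2 and 3 against 3.19 to 3.44. All Prox1 values were below 6.55, the median of all gene values. Prox1 is needed for lymphatic endothelium in the mouse, so other lymphatic genes are given beside it: of 8 measured, 2 rose and 6 did not pass. The 2 were Flt4, the receptor of the growth factor Vegfc (3.69 ± 0.74, SE; limma adjusted p = 0.0348), and Lyve1, a hyaluronan receptor (2.51 ± 0.42, SE; limma adjusted p = 0.0219), which are also made by marrow sinusoids. Lyve1 was at 6.91, 5.14 and 6.35 in Tie2-positive replicates 1, 2 and 3, and its mean there of 6.13 was under 6.55. The mucin-like protein Pdpn changed by 1.04 ± 0.67 (SE; limma adjusted p = 0.332). The lymphatic count was 1 when either Tie2-positive replicate 2 or Tie2-negative replicate 3 was left out.

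Foxc1 had values of 7.73, 5.95 and 5.41 in Tie2-positive replicates 1, 2 and 3, against 4.85, 4.79 and 5.35 in the Tie2-negative arrays. Tie2-positive replicate 3 and Tie2-negative replicate 3 differed by only 0.05, and Tie2-positive replicate 1 lay 1.78 above the next array. The change was 1.37 ± 0.57 (SE; 95% interval 0.01 to 2.72) and did not pass (limma adjusted p = 0.172). Its second probe set gave nearly the same change (1.35 ± 0.47, SE; limma adjusted p = 0.138 over all probe sets).

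Foxc2 had values of 6.43, 5.02 and 4.96 in Tie2-positive replicates 1, 2 and 3, against 4.22, 3.93 and 4.25 in the Tie2-negative arrays. The populations did not overlap, and replicates 2 and 3 lay about 0.7 above the highest Tie2-negative value. The change was 1.34 ± 0.39 (SE; 95% interval 0.41 to 2.26) and did not pass (limma adjusted p = 0.0842). Without Tie2-positive replicate 1 it was smaller but passed (0.86; limma adjusted p = 0.0124), and with array weights it also passed (0.98; limma adjusted p = 0.0150).

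Foxc1 marks reticular stromal cells of mouse marrow, and 3 of 13 stromal and perivascular genes rose, with a summed signal of 11.66 to 12.52 in the Tie2-positive and 9.79 to 10.89 in the Tie2-negative arrays. These were Kitl, the ligand of Kit (5.35 ± 0.66, SE; limma adjusted p = 0.0122), the chemokine gene Cxcl12 (4.59 ± 0.52, SE; limma adjusted p = 0.0105) and Ebf3, a factor of reticular cells (2.12 ± 0.48, SE; limma adjusted p = 0.0478). Among the Tie2-positive arrays, 8 of the 13 genes were highest in replicate 1, as Foxc1 and all 19 pan-endothelial genes were. Others ran the opposite way, such as the collagen gene Col3a1, at 7.96, 10.11 and 11.44 in Tie2-positive replicates 1, 2 and 3, against 6.16, 6.69 and 9.08 in the Tie2-negative arrays (named after its values were seen). Lepr, a receptor that marks the same cells in adult marrow, did not pass (0.55 ± 0.37, SE; limma adjusted p = 0.352), and neither did Pdgfra (0.15 ± 0.19, SE; limma adjusted p = 0.620). Which cells made the transcripts of this list was not determined, and the part of stromal cells in the Foxc1 values was not tested.

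All 9 genes had their highest Tie2-positive value in replicate 1, where 42.2% of all genes did. In 8 of the 9 the SD over the Tie2-positive arrays exceeded that over the Tie2-negative arrays, Prox1 again being the exception, and 56.4% of all genes showed this. The Tie2-positive values spanned more than 2 units for 6 genes (Sox7, Sox17, Sox18, Nr2f2, Foxc1 and Maf) and less than 1 for Hey2 and Prox1. The median pan-endothelial gene stood 5.39, 3.84 and 2.72 above its Tie2-negative mean in Tie2-positive replicates 1, 2 and 3. Sox18 stood 6.33, 4.56 and 3.13 above its Tie2-negative mean in the same arrays, and Nr2f2 3.92, 2.77 and 1.91, so both placed the 3 arrays as the endothelial list did. Sox7, Foxc1, Foxc2 and Maf had the same order, while Sox17, Hey2 and Prox1 were lowest in replicate 2. The neutrophil genes ran the opposite way over these arrays, and their part in the spread was not tested.

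The 9 genes also differed between replicates 2 and 3 of the Tie2-positive population. Maf was higher in replicate 2 than in replicate 3 by 1.98, Sox18 by 1.43, Nr2f2 by 0.86, Foxc1 by 0.55, Sox7 by 0.49 and Foxc2 by 0.06, whereas Sox17 differed by -0.13, Prox1 by -0.18 and Hey2 by -0.37. All 19 pan-endothelial genes were higher in replicate 2 than in replicate 3 (median difference 1.12), as were all 16 venous and sinusoidal genes (1.51) and 5 of the 6 reported SoxF targets (0.85). Of 18 arterial genes 7 were higher in replicate 2, with a median difference of -0.10, against 52.7% of all genes (median difference 0.02). These differences are between single arrays and have no test.

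**Figure D3:**
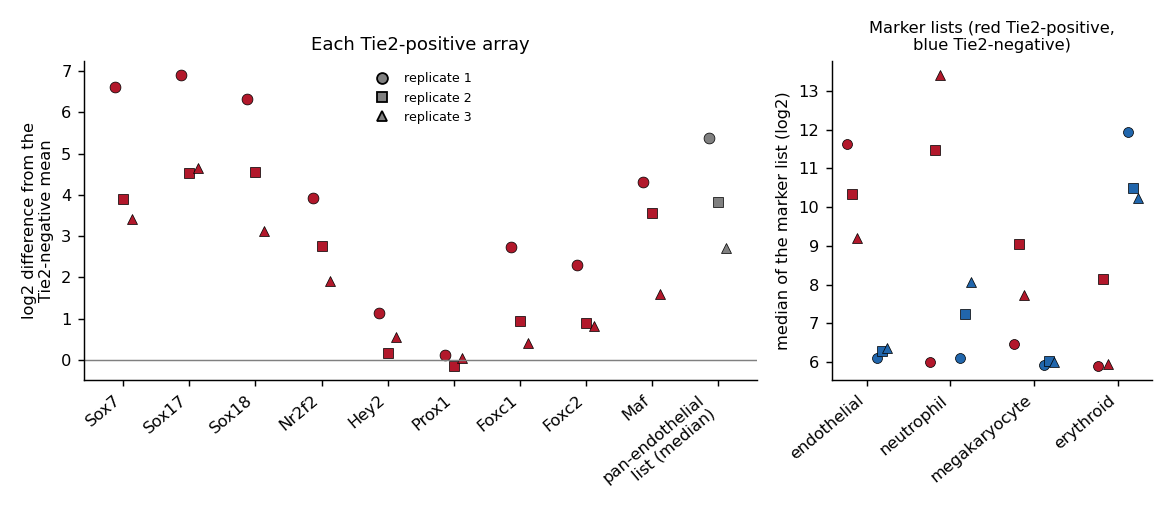
Left, log2 difference of each Tie2-positive array from the Tie2-negative mean for the 9 genes (red) and for the median gene of the pan-endothelial list (grey); right, median level (log2) of 4 cell marker lists on each array, with Tie2-positive arrays in red and Tie2-negative arrays in blue, symbol shape giving the replicate. All 9 genes are highest in replicate 1, the array with the highest endothelial median (11.63) and the lowest neutrophil median (5.99).

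For each of the 5 called genes, the 3 genes with the most similar values over the 6 arrays were found among 10183 others whose higher population mean was above 6.55, by the root mean square difference after centring each gene on its own mean. Nearest to Sox7 were Osmr, a receptor chain for oncostatin M (0.15), Pcdh17 (0.18) and Cyyr1 (0.23). Nearest to Sox18 were Cyyr1 (0.13), Myzap (0.14) and Ramp2, the partner of the adrenomedullin receptor in endothelium (0.20). The genes nearest to Sox17, which were farther away, were Igfbp7, an endothelial binding protein (0.40), Kitl (0.42) and Vegfc (0.44). Nr2f2 lay nearest to the endothelial adhesion molecule Icam2 (0.11), then to Wtip (0.18) and Nts (0.19). Maf lay nearest to the lysosomal protease Lgmn (0.15), Rnase4 (0.17) and Upp1 (0.28). Genes picked for values so close to those of a called gene are nearly bound to be called with it, so their calls are no separate result. Lgmn was the only one of these neighbours that did not pass (limma adjusted p = 0.0593).

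Genes that surround these factors in vessel identity were taken as lists. Of 18 arterial genes, 9 rose and 9 did not pass, with a median change of 2.24. The largest rises were those of Nrp1, a co-receptor of Vegf (6.74 ± 0.54, SE; limma adjusted p = 0.0101), the growth factor gene Vegfc (4.78 ± 0.63, SE; limma adjusted p = 0.0132) and Fbln5, an elastic fibre protein (4.11 ± 0.65, SE; limma adjusted p = 0.0199). Among the others, the receptors Notch1 (2.23 ± 0.45, SE) and Notch4 (3.63 ± 0.72, SE) and the ligand Jag1 (4.07 ± 0.53, SE) rose, with limma adjusted p-values of 0.0356, 0.0341 and 0.0131. Efnb2, the arterial ephrin, did not pass although its change of 2.59 ± 0.72 (SE) was larger than that of Notch1. The arterial Notch ligand Dll4 (0.58 ± 0.31, SE) did not pass, nor did Gja5, an arterial connexin (-0.30 ± 0.16, SE), and these 6 genes were singled out after their values were seen.

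Of 16 venous and sinusoidal genes, 9 rose and 7 did not pass, with a median change of 3.69. The apelin receptor gene Aplnr led with 8.57 ± 0.41 (SE; limma adjusted p = 0.00340), followed by the adhesion molecule Vcam1 (6.21 ± 0.69, SE; limma adjusted p = 0.0105) and the cytokine receptor chain Il6st (5.10 ± 0.69, SE; limma adjusted p = 0.0138). Ephb4, the venous Eph receptor, had a change of 1.46 ± 0.67 (SE) and did not pass (limma adjusted p = 0.203; named after its value was seen). Of 6 genes reported as targets of SoxF factors, 4 rose, namely Vcam1, the junction genes Cdh5 (5.58 ± 0.61, SE) and Cldn5 (5.31 ± 0.75, SE), and Notch1, while Robo4 and Dll4 did not pass. Of the 6, 3 also stand in the pan-endothelial list, Vcam1 in the venous list, and Notch1 and Dll4 in the arterial list. Flt4 is counted in both the venous and the lymphatic list. The lists are therefore not independent of each other.

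Of 25 other endothelial transcription factors, 9 rose, 0 fell and 16 did not pass, with a median change of 1.59. Epas1, which encodes HIF-2 alpha, rose by 7.10 ± 0.51 (SE; limma adjusted p = 0.00976), the homeobox factor Meox2 by 5.84 ± 0.79 (SE; limma adjusted p = 0.0140) and Klf4 by 3.84 ± 0.68 (SE; limma adjusted p = 0.0262). Of 13 measured near relatives of Nr2f2, Hey2, Prox1, the Foxc genes and Maf, 0 passed in limma, although 6 had an unadjusted p under 0.05. The 2 with the highest means were Mafg (-0.34 ± 0.33, SE) and Mafk (-0.76 ± 0.25, SE). Without Tie2-negative replicate 3 the arterial, venous, SoxF target and transcription factor counts were 3, 4, 2 and 2, and without Tie2-negative replicate 1 or 2 each was 0. In those fits limma called 376, 0 and 0 of all genes, in place of 1341. Without Tie2-positive replicate 2 the venous count was 5, with 496 of all genes called, and without Tie2-positive replicate 1 the transcription factor count was 14, with 2157 of all genes called.

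**Figure D4:**
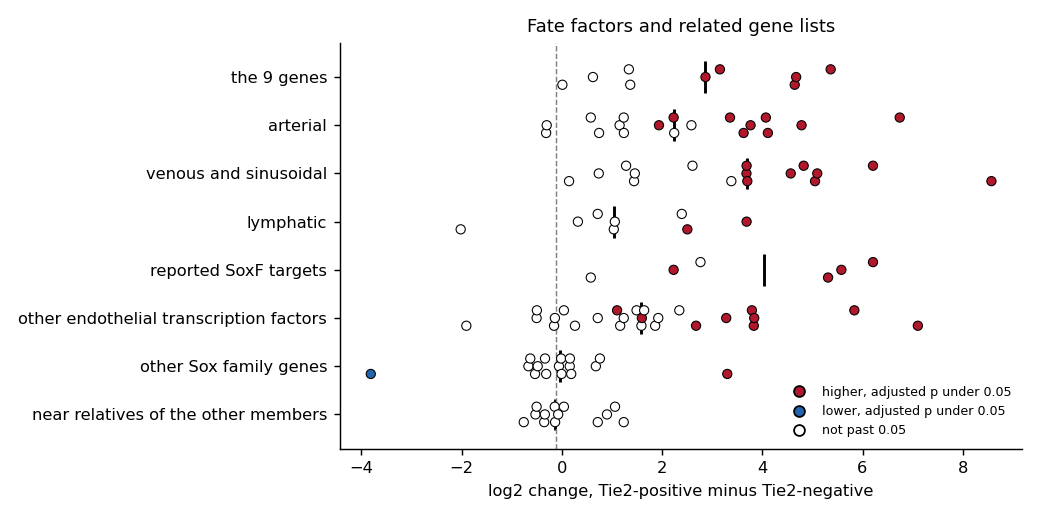
Log2 change (Tie2-positive minus Tie2-negative, horizontal axis) of the 9 genes and of 7 related gene lists, 1 point per gene; red and blue points passed an adjusted p under 0.05, short black bars are list medians and the dashed line is the median of all genes (-0.11). The medians of the 9 genes, the arterial and the venous lists are 2.87, 2.24 and 3.69, and those of other Sox genes and near relatives lie at -0.03 and -0.13.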

How the data were processed

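The deposited values are on a log2 scale, read from their range of 2.56 to 14.78. Their summarisation and normalization by the authors are not given in the sources used here. Per the labels' protocols, arrays were scanned with GCOS 1.1.1. Array medians differed by up to 0.08 and 75th percentiles by up to 0.27, so the 45037 probe sets other than controls were quantile normalized. Gene names came from the platform annotation, and 932 probe sets with several genes and 9160 with none were not named.

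Populations were compared with limma 3.58.1 in R 4.3.3 (lmFit, eBayes with trend, all 6 arrays, no covariates, two-sided), adjusted by Benjamini-Hochberg over 18193 genes at a threshold of 0.05. Other probe sets were tested in a fit over 45037. Precision is limited by the 6 arrays. The procedure was tested on simulated data. The 9 genes, the lists and the alternatives were chosen with earlier results of these data known. Beside the 9 genes, the naming rule took up to 3 called genes with the largest change per list (or the 2 with the highest mean) and the 3 nearest genes of each called member. Early B-cell, megakaryocyte, T and NK, bone and muscle lists gave counts of 7 lower, 2 higher, 1 lower, 1 lower and 0 of 12, 8, 8, 9 and 10 measured genes. Alternatives tried were a block for replicate number, 2 other normalizations, a filter, other choices of probe set, other variance models, array weights and leaving out arrays.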

Additional observations from a re-analysis of the deposited data

How the results depend on the processing

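Sox7, Sox17, Sox18, Nr2f2 and Maf had a positive change in all 17 alternatives, with ranges of 2.81 to 6.61, 1.68 to 6.90, 3.85 to 6.33, 1.61 to 3.92 and 1.28 to 4.30 on the log2 scale, and highest limma adjusted p-values of 0.101, 0.0879, 0.0925, 0.110 and 0.131. Hey2, Foxc1 and Foxc2 were positive in 16 alternatives, with ranges of 0.26 to 1.14, 0.68 to 2.73 and 0.86 to 2.30. In these 8 genes the populations did not overlap, so every fit that left out arrays had to be positive. The block, the filter and the other variance models leave the size of a change as it is. The shared sign is therefore no separate result. Without Tie2-positive replicate 1 the changes of Hey2 and Foxc1 were 0.36 and 0.68, against 0.62 and 1.37 over all arrays. They and Prox1 were not among the 5 genes that passed the filter at the 40th percentile. Prox1 turned to -0.09 with the deposited values, -0.047 with arrays centred on their medians and -0.13 with array weights, and ran from -0.091 to 0.14 when 1 array was left out, never past the threshold. No label says whether a replicate number marks a shared litter or sort, and correlations between the arrays cannot decide it. Deviations of same-numbered arrays correlated at 0.14, 0.01 and 0.19, and 2 of 3 Tie2-positive arrays correlated best with their own number. Adding a replicate block, limma called 0 of all genes (smallest adjusted p 0.0528, 5080 at an unadjusted p under 0.05), hence 0 of the 9 and 0 in every list, with adjusted p-values of 0.0528 to 0.0695 for the 5. Leaving out 1 array, the number called ran from 0 to 6 for the 9 genes, 0 to 11 for arterial, 0 to 13 for venous, 0 to 2 for lymphatic, 0 to 5 for SoxF target, 0 to 14 for other transcription factor, 0 to 2 for other Sox and 0 to 1 for near-relative genes. With array weights the lymphatic, transcription factor, other Sox and near-relative counts were 4, 16, 5 and 4. That fit called 4634 of all genes in place of 1341, against 0 to 2157 when 1 array was left out. The near-relative count was 1 with deposited values, with centred arrays and with the filter, where the lymphatic count was 1. With Tie2-positive replicates 2 and 3 left out (chosen after seeing the data) the counts were 8 for the 9 genes, 15 arterial, 15 venous, 4 lymphatic, 17 transcription factor and 4 near-relative. With a lone Tie2-positive array, that fit assumes that the array varies like the Tie2-negative ones. Its counts are therefore not read as results about the 9 genes or the lists. The causes of the differences between alternatives were not tested. Offsets before taking logs were not run, since the values are on a log scale. No detection calls were at hand, so signal over background limits the sizes of changes of low genes.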
